A study of Mus musculus with 17 samples.

Results

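The 10 genes described here encode the core of the machinery that checks and drives chromosome segregation: the spindle checkpoint components *Bub1*, *Bub1b*, *Mad2l1* and *Ttk*, the kinases *Plk1*, *Aurka*, *Aurkb* and *Aurkc*, and *Cdc20* and *Espl1*, which act at anaphase onset. They were chosen by symbol, and each matched 1 row of a table of 23282 gene symbols. RNA was measured in 17 libraries of germ cells that were sorted by FACS, after Hoechst and propidium iodide staining, as 3 stages: spermatogonia (SPG), then spermatocytes at pre-leptotene (PreL) and, together, those at leptotene and zygotene (LZ). WT mice and *Nat10*-SKO mice shared the C57BL/6 strain, and the SKO libraries carry the genotype label Stra8-cre_Nat10_KO: a GFPCre under *Stra8*, a gene that germ cells switch on before meiosis, removes floxed exons of *Nat10*, which encodes an RNA acetyltransferase. The paper writes the SKO genotype as *Nat10* fl/- with *Stra8*-Cre, that is, with 1 floxed allele beside 1 already deleted allele. Each genotype had 3 libraries of SPG and 3 of PreL, and LZ had 2 of WT and 3 of SKO. Ages were not given in the sources used here. The study calls its replicates biological, but the labels do not say that the libraries came from separate animals, so the p-values measure the spread between these libraries, which may be technical.

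In a dividing cell, unattached kinetochores recruit the kinases TTK and BUB1 and the proteins MAD2 and BUBR1 (the product of *Bub1b*), which hold CDC20 in an inhibited complex. Once all kinetochores are attached, CDC20 activates the anaphase-promoting complex (APC/C), which marks securin and cyclin B for destruction and so frees separase, the product of *Espl1*, to cut cohesin. Aurora A works at spindle poles, Aurora B corrects faulty attachments as the kinase of the chromosomal passenger complex, Aurora C is the meiotic relative of Aurora B, and PLK1 acts from mitotic entry to cytokinesis. In spermatogenesis, spermatogonia divide by mitosis, whereas leptotene and zygotene spermatocytes are in meiotic prophase, long before the meiotic divisions in which the same proteins are used again.

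The libraries held 9885136 to 13820953 reads in SPG, PreL and WT LZ, and 5812380 to 7609420 in SKO LZ. Levels are given as rescaled values, that is, the deposited ERCC-calibrated counts divided by 1 size factor per library (median of ratios over all 17). These values exceed the reads, and by more in SKO LZ. *Bub1*, for example, had 1789 reads and a rescaled value of 2797 in WT SPG replicate 1. In SKO LZ replicate 1 it had 1395 reads and a rescaled value of 7597. A gene was called where limma's adjusted p fell below 0.05 and its log2 fold change exceeded 1 in size on log2(rescaled value + 10), a scale that understates the change of low genes. SE is the standard error of that fold change. All 10 genes passed the filter of a mean of 10 reads in every comparison. *Nat10* itself was lower in every SKO library than in every WT library of its stage, with log2 fold changes of -0.87, -1.29 and -1.47 in SPG, PreL and LZ (limma adjusted p = 0.0326, 0.00591 and 0.00469), the SPG value being under the fold threshold. Its PreL call was lost on the ERCC-calibrated scale (-0.59) and its LZ call without WT LZ replicate 3 (log2 fold changes of -1.72 to -1.27 over the libraries left out in turn). Without rescaling, the ERCC-calibrated values moved the median log2 fold change of all genes tested to -0.25 in SPG, 0.73 in PreL and -0.25 in LZ for SKO against WT, to 0.08 and 1.86 for the PreL and LZ steps of WT, and to 1.01 and 0.81 for those of SKO. On the rescaled values these medians lay between -0.13 and 0.13. For the change of the genotype effect between stages, the rescaled medians over all genes were -0.01 from SPG to PreL and -0.31 from PreL to LZ. Genes of late spermatocytes and spermatids were among the RNA that differed between the genotypes: 12 of 13 late spermatocyte markers and 14 of 14 spermatid markers were called lower in SKO LZ, 11 of 13 and 10 of 14 in SKO PreL, and 5 of 13 and 9 of 14 in SKO SPG. Leydig cell markers were called higher in SKO, 5 of 7 tested in SPG, 6 of 7 in PreL and 6 of 8 in LZ, as were 6 of 8, 2 of 8 and 4 of 5 macrophage markers. From bulk RNA alone, fewer cells of a type and less RNA per cell cannot be told apart. By FACS of testes, the paper detected no haploid round spermatids in *Nat10*-SKO mice and sharply fewer tetraploid spermatocytes. The part of these cell losses in the sorted libraries was not tested.

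Which of the 10 genes were called between the genotypes differed by stage. In SPG, 2 of the 10 genes, *Plk1* and *Aurkb*, were called lower in SKO, against 2.06% of all genes tested, and none was called higher, against 3.95%. In PreL, *Aurkb* was called lower, against 5.83% of all genes, and *Cdc20* was called higher, against 5.32%. In LZ, *Aurka* and *Aurkc* were called lower, against 25.8% of all genes, and none of the 10 was called higher, against 13.4%. A count of 2 of 10 in LZ was near the share of all genes called lower there. The median log2 fold change over the 10 genes was -0.36 in SPG, -0.09 in PreL and 0.22 in LZ, beside medians of 0.00136, 0.04 and -0.13 over all genes tested.

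**Figure D1:**
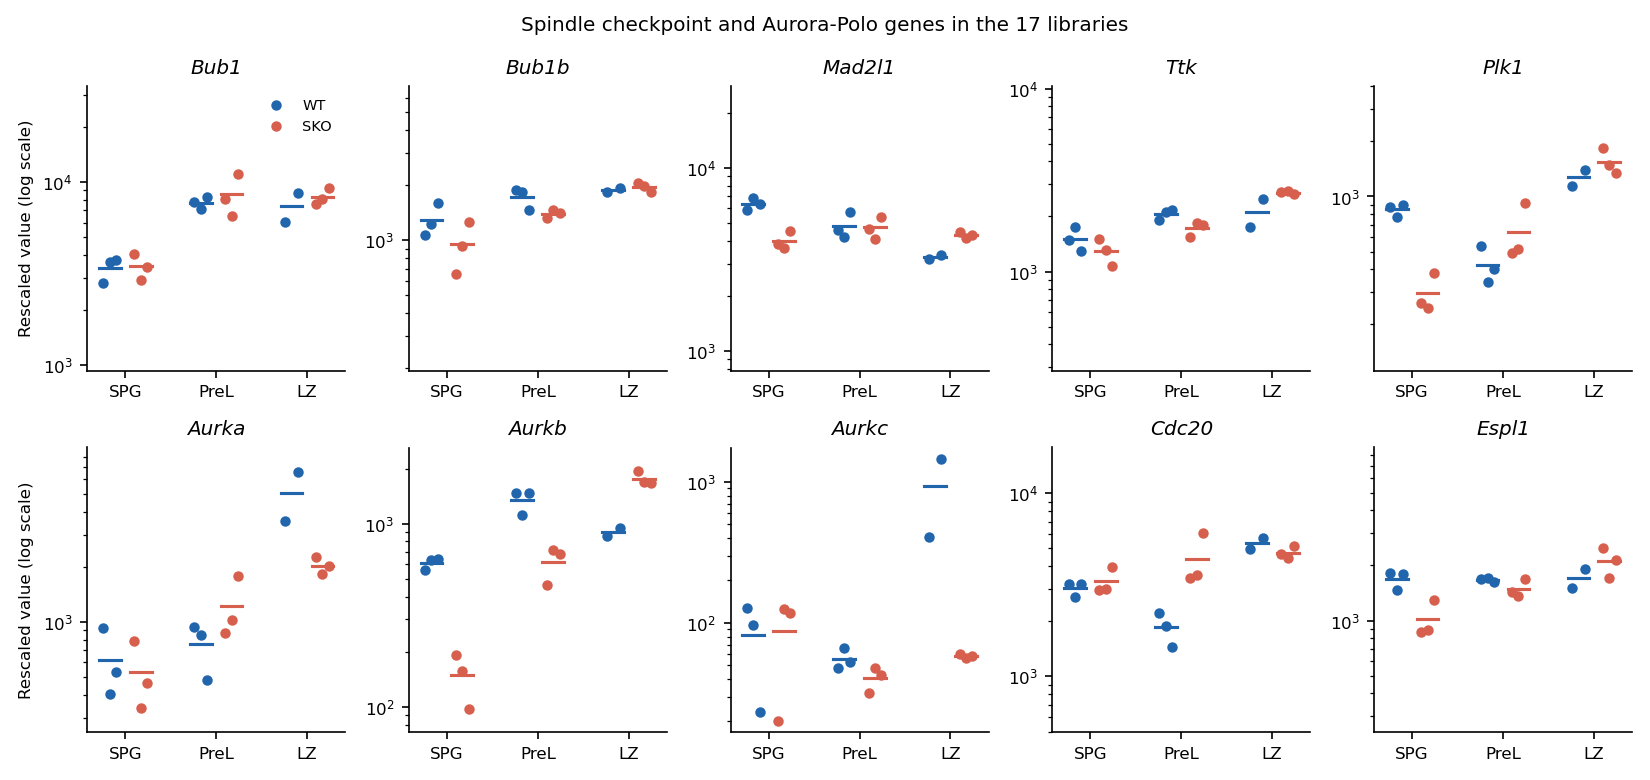
Rescaled values (log scale) of the 10 genes in the 17 libraries, with 1 point per library, WT in blue and SKO in red, and the mean of each group as a line. *Aurkc* reached 406 and 1464 in the WT LZ libraries and stayed at or below 127 in the other 15, while *Aurkb* lay below WT in SKO SPG and PreL and above it in SKO LZ.

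*Aurkb* (chr11:69045647-69051664, plus strand, GRCm38) encodes the kinase of the chromosomal passenger complex and was lower in SKO in SPG and PreL and higher in LZ. In SPG its rescaled values were 561, 635 and 643 in WT replicates 1, 2 and 3, and 192, 158 and 97.8 in SKO replicates 1, 3 and 4. Every SKO SPG library lay below every WT one, by 3.95-fold on the tested scale, a log2 fold change of -1.98 (SE 0.32, adjusted p = 0.00178). In PreL the WT values were 1467, 1118 and 1467 in replicates 1, 2 and 4, and the SKO values were 462, 718 and 687 in replicates 1, 2 and 3. The genotypes again did not overlap, and the log2 fold change was -1.11 (SE 0.21, adjusted p = 0.00722). This call was lost without SKO PreL replicate 1 (-0.91, adjusted p = 0.0317) and on the ERCC-calibrated scale (-0.40, adjusted p = 0.193), where it lay -1.13 relative to the median of all genes. In LZ the order was the opposite one: WT replicates 2 and 3 held 857 and 946, and SKO replicates 1, 2 and 3 held 1933, 1689 and 1672. All SKO LZ libraries lay above WT, and the log2 fold change of 0.95 (SE 0.17, adjusted p = 0.00294) was just under the fold threshold. The summed level of the 18 mitosis markers was 59888 to 73616 in WT LZ and 108983 to 122674 in SKO LZ. Of the 18, 3 were called higher in SKO and 2 lower, against 13.4% and 25.8% of all genes. Their part in the *Aurkb* difference was not tested. The change of the genotype effect from PreL to LZ was 2.08 (SE 0.34, adjusted p = 9.62e-05), and it kept its sign and its side of the threshold under every alternative fitted, from 1.53e-08 to 0.00668 in adjusted p.

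From SPG to PreL, *Aurkb* was called higher in WT, by 1.08 (SE 0.18, adjusted p = 0.0102), and in SKO, by 2.01 (SE 0.31, adjusted p = 0.0089). From PreL to LZ it was higher in SKO, by 1.48 (SE 0.19, adjusted p = 0.000464), while WT had a difference of -0.71 (SE 0.24, adjusted p = 0.0442), which passed the p threshold but not the fold threshold and had the opposite sign on the ERCC-calibrated scale (1.11, adjusted p = 0.00145), against a shift of 1.86 in the median of all genes. The 4 comparisons share libraries with the genotype comparisons and are given side by side.

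*Incenp*, whose product activates Aurora B and anchors it at centromeres, also was lower in SKO PreL and higher in SKO LZ. In PreL it was called lower in SKO (-1.26, adjusted p = 0.000306), at 802 ± 8.44 in SKO and 1949 ± 17.4 in WT (SD, n = 3 each), a call that was lost on the ERCC-calibrated scale (-0.54). In LZ it was called higher in SKO (1.18, adjusted p = 0.000764), at 2109 ± 9.75 (n = 3) and 918 ± 84.3 in WT (n = 2). The passenger complex partners *Birc5* and *Cdca8* had log2 fold changes of -0.16 and 0.20 in PreL and of -0.18 and -0.65 in LZ, none of them called, and were named after their values were seen.

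*Aurka* (chr2:172356190-172370535, minus strand) encodes the spindle pole kinase, and *Aurkc* (chr7:6995300-7003091, plus strand) the Aurora kinase of meiotic cells. They were highest in WT LZ. *Aurka* had rescaled values of 3563 and 6559 in WT LZ replicates 2 and 3, and of 2249, 1827 and 2014 in SKO LZ replicates 1, 2 and 3. Every SKO library lay below both WT libraries, and the log2 fold change was -1.27 (SE 0.27, adjusted p = 0.00604). WT replicate 3 held 6559 against 3563 in replicate 2, and without replicate 3 the log2 fold change was -0.83 (adjusted p = 0.0336), under the fold threshold. *Aurkc* was a low gene outside WT LZ. It had 289 and 791 reads in WT LZ and 11, 16 and 14 in SKO LZ, or rescaled values of 406 and 1464 and of 59.9, 56.6 and 58.5. The genotypes did not overlap, and the log2 fold change was -3.64 (SE 0.54, adjusted p = 0.00123). It stayed called when either WT LZ library was left out, with log2 fold changes of -4.60 to -2.72 over the libraries left out in turn, and on the ERCC-calibrated scale (-3.76).

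In SPG and PreL neither gene was called between the genotypes on the rescaled values, and on the ERCC-calibrated scale *Aurka* was called higher in SKO PreL (1.40, adjusted p = 0.00243), 0.67 above the shift of all genes. The SPG values of *Aurka* were 930.2, 402 and 534 in the WT libraries and 789, 340.2 and 463 in the SKO ones, and the PreL values 932, 847 and 483 and 865, 1027 and 1779, so that the genotypes overlapped in both stages. *Aurkc* had between 10 and 81 reads in the 12 SPG and PreL libraries, and its SPG difference was 0.02 (SE 0.64, adjusted p = 0.99). In WT, *Aurka* rose from PreL to LZ by 2.58 (SE 0.34, adjusted p = 0.00251) and *Aurkc* by 3.47 (SE 0.56, adjusted p = 0.00309). In SKO the same step was 0.76 (SE 0.26, adjusted p = 0.0468) for *Aurka*, under the fold threshold, and 0.44 (SE 0.35, adjusted p = 0.353) for *Aurkc*. The change of the genotype effect from PreL to LZ was -1.93 (SE 0.52, adjusted p = 0.00675) for *Aurka* and -3.15 (SE 0.90, adjusted p = 0.00987) for *Aurkc*. Without WT LZ replicate 3 these were -1.51 (adjusted p = 0.0597) and -2.25 (adjusted p = 0.096), and neither passed the threshold.

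In LZ, markers of late spermatocytes were lower in SKO beside *Aurka* and *Aurkc*, and higher in the WT library with more of both. The summed rescaled value of the 13 late spermatocyte markers was 87218 in WT LZ replicate 2 and 200781 in replicate 3, and 5689 to 6682 in SKO LZ. It was 13136 to 32731 in WT PreL, 4406 to 5297 in SKO PreL, 7374 to 8562 in WT SPG and 3635 to 7314 in SKO SPG, and no marker was without reads in any group. The summed value of the 14 spermatid markers was 20838 to 23492 in WT LZ and 221 to 332 in SKO LZ, where *Acrv1*, *Odf1*, *Hils1* and *Spaca7* had no read. In WT PreL the spermatid sum was 13807 to 22639.6, with *Aurkc* at 47.8 to 66.3. The part of these cells in the *Aurka* and *Aurkc* values was not tested.

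Per kilobase of exon, *Aurkb* made up 29.7% to 49.2% of the summed level of the 3 Aurora genes in WT SPG and 11.3% to 19.9% in SKO SPG. Its share was 50.1% to 68.8% in WT PreL and 24.2% to 35.8% in SKO PreL. In LZ the order of the genotypes was the opposite, with 8.29% to 14.8% in WT and 40.5% to 43.0% in SKO. *Aurkc* took 13.6% to 24.8% in WT LZ and 2.48% to 2.79% in SKO LZ. A high *Aurkc* share was not confined to WT LZ. In SPG it varied from 3.44% to 14.6% in WT and from 3.37% to 30.3% in SKO, on 10 to 81 reads. In PreL it was 3.50% to 5.74% in WT and 2.91% to 4.63% in SKO. These shares are descriptions within a library and do not depend on its scaling.

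**Figure D2:**
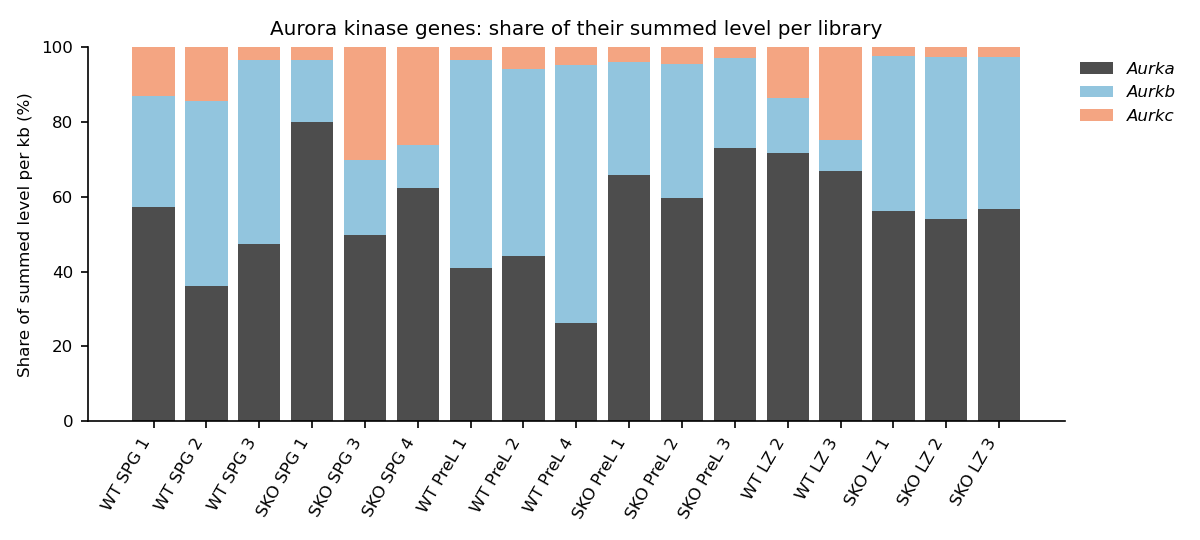
Share (%) of *Aurka*, *Aurkb* and *Aurkc* in their summed rescaled level per kilobase of exon, 1 bar per library. *Aurkb* was a smaller part in the SKO SPG and PreL libraries than in the WT ones, and *Aurkc* reached 13.6% to 24.8% in WT LZ against 2.48% to 2.79% in SKO LZ. In SPG *Aurkc* ranged from 3.44% to 14.6% in WT and from 3.37% to 30.3% in SKO.

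*Plk1* (chr7:122159439-122169873, plus strand), the Polo kinase of mitotic entry, was called lower in SKO in SPG. Its rescaled values were 882, 777 and 893 in WT SPG replicates 1, 2 and 3, and 260.3, 245 and 384 in SKO replicates 1, 3 and 4. The ranges lay well apart, and the log2 fold change was -1.51 (SE 0.25, adjusted p = 0.00243), from -1.70 to -1.39 with libraries left out in turn. In PreL it was 536, 339.9 and 400.0 in WT and 492, 517 and 918 in SKO, where the genotypes overlapped and the log2 fold change was 0.56 (SE 0.28, adjusted p = 0.192). On the ERCC-calibrated scale that value was called higher (1.26, adjusted p = 0.00289), 0.53 above the shift of all genes. In LZ it was 1145 and 1395 in WT and 1829.9, 1479.9 and 1342 in SKO, which differed by 0.27 (SE 0.20, adjusted p = 0.308) on the log2 scale. The change of the genotype effect from SPG to PreL was 2.07 (SE 0.35, adjusted p = 0.0149), the only call among the 10 genes for this interaction, which called 0.251% of all genes higher and 0.111% lower. Without WT SPG replicate 3 its adjusted p was 0.0558 (log2 2.03). Exons of *Plk1* overlap *Gm44985* on the other strand over 156 bases, and strand was not stated for the counting, so reads there cannot be told apart.

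Within WT, *Plk1* was called lower in PreL than in SPG, with -1.03 (SE 0.22, adjusted p = 0.0227), and higher in LZ than in PreL, with 1.44 (SE 0.29, adjusted p = 0.00663). The first of these calls lay close to the fold threshold and was lost on the ERCC-calibrated scale (-0.96) and without WT SPG replicate 1 (adjusted p = 0.0623), WT SPG replicate 3 (adjusted p = 0.0949) or WT PreL replicate 2 (-0.88). The call from PreL to LZ was lost without WT LZ replicate 3 (1.30, adjusted p = 0.059). Within SKO the steps were 1.07 (SE 0.30, adjusted p = 0.0649) into PreL, not called, and 1.28 (SE 0.26, adjusted p = 0.00513) into LZ, called. In SPG, 1 of the 18 mitosis markers was called lower in SKO (median log2 fold change -0.43), against 2.06% of all genes. None of 15 S phase markers was called, with a median of -0.35. The summed mitosis level was 51931 to 57948 in WT SPG and 40159 to 46612 in SKO SPG, and the share of dividing cells in the *Plk1* and *Aurkb* values was not tested. Leydig cell markers summed to 126 to 335 in WT SPG and 1315 to 4888 in SKO SPG, and macrophage markers to 177 to 314 and 1997 to 3397. In WT SPG *Lhcgr*, *Hsd17b3* and *Emr1* had no read, and the part of these cells was not tested.

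**Figure D3:**
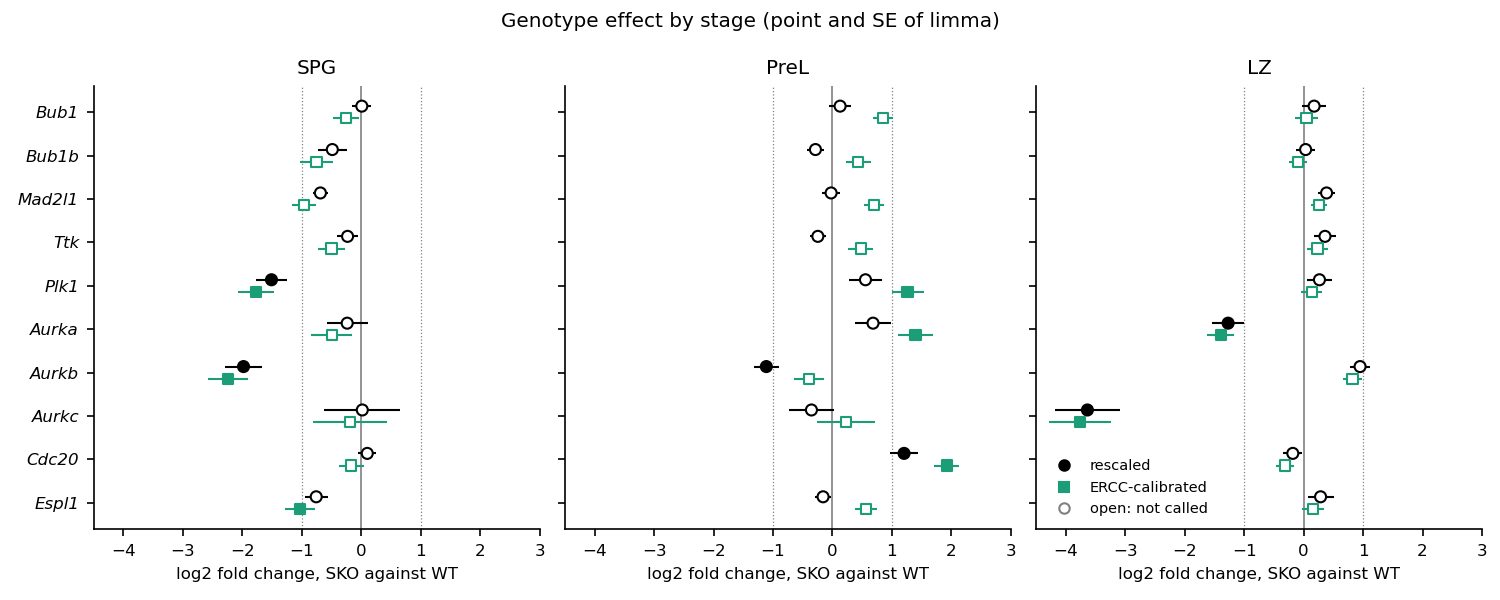
Log2 fold change of SKO against WT for the 10 genes in SPG, PreL and LZ, as points with the standard error of limma, on the rescaled values (black circles) and on the ERCC-calibrated values (green squares), filled where called. *Plk1* and *Aurkb* lie left of -1 in SPG, *Aurkb* and *Cdc20* pass the threshold in opposite directions in PreL, and *Aurka* and *Aurkc* lie left of -1 in LZ.

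None of the 4 checkpoint genes was called between the genotypes in any stage, on the rescaled or the ERCC-calibrated values. *Mad2l1* (chr6:66535390-66547220, plus strand), whose product binds and inhibits CDC20, had rescaled values of 5856, 6822 and 6353 in WT SPG and 3817, 3637 and 4508 in SKO SPG. Every SKO library was lower, and the log2 fold change of -0.69 (SE 0.13, adjusted p = 0.00435) passed the p threshold but not the fold threshold. In PreL and LZ its log2 fold changes were -0.02 and 0.39 (limma adjusted p = 0.935 and 0.0574). *Bub1* (chr2:127801122-127831865, minus strand), a kinetochore kinase that also guides shugoshin to centromeres, had adjusted p-values of 0.98, 0.654 and 0.506 in SPG, PreL and LZ. *Bub1b* (chr2:118598211-118641591, plus strand), which encodes BUBR1, had log2 fold changes of -0.49, -0.29 and 0.03 (limma adjusted p = 0.221, 0.197 and 0.871). Over all libraries *Bub1b* ranged from 653 to 2059 and *Ttk* from 1077 to 2747. *Ttk* (chr9:83834689-83872389, plus strand), the kinase that starts the checkpoint signal, had -0.23, -0.25 and 0.36 (limma adjusted p = 0.464, 0.224 and 0.155).

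*Bub1* was the checkpoint gene that moved most between stages. It had 2797, 3640.5 and 3746 in WT SPG and 7759, 7103 and 8249 in WT PreL, and the step was 1.15 (SE 0.14, adjusted p = 0.0036). In SKO it had 4015, 2913 and 3436 in SPG and 8055, 6547 and 11096 in PreL, a step of 1.30 (SE 0.19, adjusted p = 0.00783). The ranges of SPG and PreL did not overlap in either genotype, both calls were kept under every alternative fitted, and the change of the genotype effect between these stages was 0.10 (SE 0.26, adjusted p = 0.9). From PreL to LZ the step of *Bub1* was -0.23 (SE 0.21, adjusted p = 0.409) in WT and -0.05 (limma adjusted p = 0.868) in SKO. *Mad2l1* in contrast was lower in WT LZ, at 3191 and 3342, than in WT PreL, at 4571, 4200.4 and 5748, with -0.70 (SE 0.20, adjusted p = 0.0289) under the fold threshold. The signs of *Bub1*, *Mad2l1*, *Ttk* and *Espl1* in this WT step turned on the ERCC-calibrated scale, to 1.60, 1.14, 1.70 and 1.71, all below the shift of 1.86 in the median of all genes. *Ttk* was higher in SKO LZ than in SKO PreL by 0.61 (SE 0.12, adjusted p = 0.00428), under the fold threshold. The change of its genotype effect from PreL to LZ, 0.63 (SE 0.24, adjusted p = 0.045), was past the threshold by a small margin, was lost without WT PreL replicate 2 or 4, SKO PreL replicate 1 or 3, WT LZ replicate 2 or any 1 of the SKO LZ libraries, and turned to -0.24 on the ERCC-calibrated scale.

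*Cdc20* (chr4:118432901-118437352, minus strand), the APC/C activator that the checkpoint holds back, was the only gene of the 10 called higher in SKO on the rescaled values. In PreL it had rescaled values of 2232, 1889.7 and 1449 in WT replicates 1, 2 and 4, and of 3434, 3568 and 6073 in SKO replicates 1, 2 and 3. No SKO library overlapped WT, and the log2 fold change was 1.20 (SE 0.23, adjusted p = 0.00888). SKO replicate 3 held the highest value, and without it the log2 fold change was 0.94 (adjusted p = 0.0103), under the fold threshold. On the ERCC-calibrated scale it was 1.93, or 1.20 above the shift of all genes. In SPG *Cdc20* had 3191, 2716 and 3183 in WT and 2974, 3008 and 3939 in SKO, and in LZ 4937 and 5732 and 4689, 4415 and 5136. The genotypes overlapped in both stages, with adjusted p-values of 0.726 and 0.378. Markers of other cells differed in PreL beside *Cdc20* and *Aurkb*: Leydig cell markers summed to 133 to 399.7 in WT and 932 to 9252 in SKO, and spermatid markers to 13807 to 22639.6 and 245 to 323, where *Acr* had no read in SKO. Sertoli cell markers summed to 1637 to 1714 in WT and 1633 to 20137 in SKO (median 16623), so the SKO libraries were uneven in these markers. Their part in these results was not tested.

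In WT, *Cdc20* was lowest in PreL: the step from SPG was -0.75 (SE 0.17, adjusted p = 0.0269), under the fold threshold, and the step to LZ was 1.39 (SE 0.22, adjusted p = 0.0031), called. In SKO the steps were 0.38 (SE 0.22, adjusted p = 0.329) and 0.14 (limma adjusted p = 0.662), neither of them called. The change of the genotype effect from PreL to LZ was -1.36 (SE 0.29, adjusted p = 0.0012), and over all alternatives its adjusted p lay between 4e-06 and 0.00867. Exons of *Cdc20* and *Elovl1* overlap over 53 bases on opposite strands. *Espl1* (chr15:102296266-102324357, plus strand), which encodes separase, had 1812, 1467 and 1794 in WT SPG and 861, 892 and 1301 in SKO SPG. The ranges did not overlap, and the log2 fold change of -0.76 (SE 0.19, adjusted p = 0.0241) was under the fold threshold on the rescaled values and past it on the ERCC-calibrated scale (-1.03, adjusted p = 0.0119). In PreL and LZ the log2 fold changes of *Espl1* were -0.16 and 0.28 (limma adjusted p = 0.442 and 0.311).

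Counted over the stage steps, the 10 genes moved as follows. From SPG to PreL in WT, *Bub1* and *Aurkb* were called higher, against 2.54% of all genes tested, and *Plk1* lower, against 1.21%. From PreL to LZ in WT, 4 genes (*Plk1*, *Aurka*, *Aurkc* and *Cdc20*) were called higher, against 18.8% of all genes, and none lower, against 7.8%. From SPG to PreL in SKO, *Bub1* and *Aurkb* were called higher, against 1.63%, and none lower, against 0.955%. From PreL to LZ in SKO, *Plk1* and *Aurkb* were called higher, against 10.6%, and none lower, against 6.93%. The genotype effect changed from PreL to LZ for 5 of the 10 genes: *Aurka*, *Aurkc* and *Cdc20* were called lower, against 23.1% of all genes, and *Aurkb* and *Ttk* higher, against 15.1%. On the ERCC-calibrated scale all 10 genes were called higher from PreL to LZ in WT, 9 from SPG to PreL in SKO and 7 from PreL to LZ in SKO, beside median shifts of 1.86, 1.01 and 0.81 over all genes. Over all genes, 10992 of 13759, 5657 of 12882 and 4409 of 12477 were called higher in these steps.

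**Figure D4:**
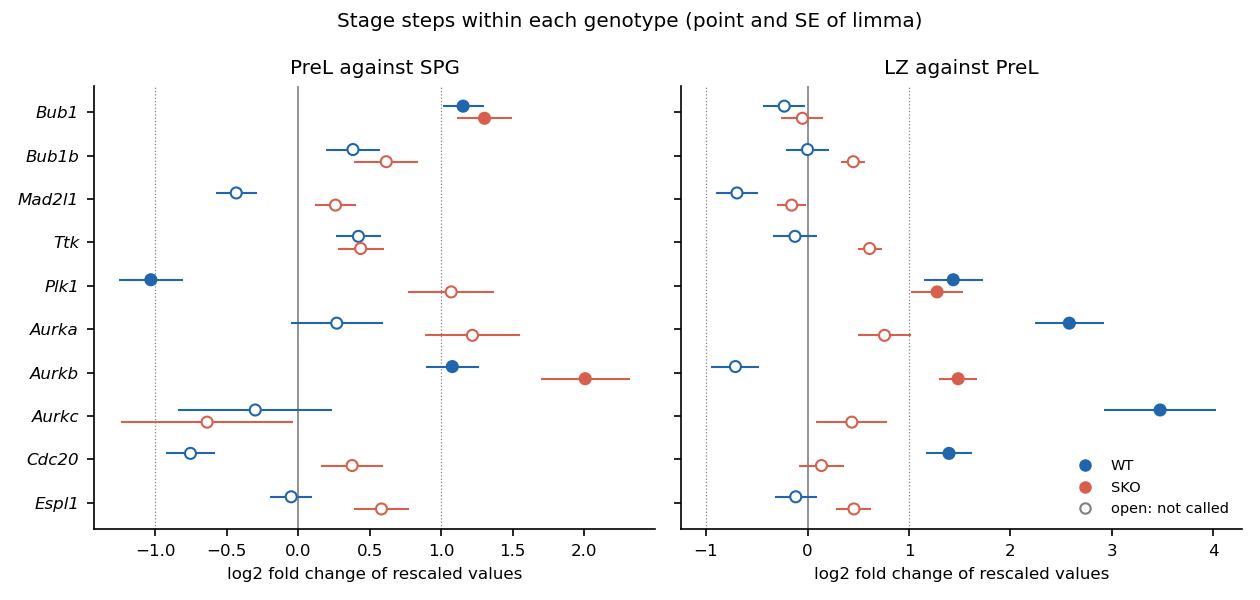
Log2 fold change of rescaled values from SPG to PreL (left) and from PreL to LZ (right) for the 10 genes within WT (blue) and within SKO (red), as points with the standard error of limma, filled where called. *Aurka* and *Aurkc* lie at 2.58 and 3.47 in WT and at 0.76 and 0.44 in SKO in the step to LZ, and *Aurkb* lies on opposite sides of 0 in the genotypes.

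The promoter windows of the 4 genes that rose from PreL to LZ in WT are shown because these genes moved together there. Promoters were taken from RefSeq (GRCm38.p6) as 250 bases before to 50 after the annotated start, and 9 of the 10 genes matched, all but *Aurkb*. Capitals mark 2 motifs of cell cycle promoters, the CHR element TTTGAA and the CCAAT box, each searched on both strands (a match on the other strand reads TTCAAA or ATTGG), with no overlap between motifs.
*Plk1* (chr7:122159185-122159484, plus strand): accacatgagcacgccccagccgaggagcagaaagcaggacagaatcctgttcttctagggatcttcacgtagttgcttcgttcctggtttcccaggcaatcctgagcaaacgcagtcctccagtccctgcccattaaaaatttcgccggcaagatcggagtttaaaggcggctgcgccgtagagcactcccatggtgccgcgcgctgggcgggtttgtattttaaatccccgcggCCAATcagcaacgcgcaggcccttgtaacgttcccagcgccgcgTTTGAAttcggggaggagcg
*Aurka* (chr2:172370521-172370820, minus strand): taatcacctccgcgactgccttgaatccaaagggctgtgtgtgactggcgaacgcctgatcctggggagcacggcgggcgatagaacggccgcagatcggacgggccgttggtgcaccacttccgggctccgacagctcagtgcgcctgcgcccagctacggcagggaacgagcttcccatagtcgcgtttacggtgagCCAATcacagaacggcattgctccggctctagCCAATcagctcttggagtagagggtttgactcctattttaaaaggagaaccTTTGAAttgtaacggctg
*Aurkc* (chr7:6995135-6995434, plus strand): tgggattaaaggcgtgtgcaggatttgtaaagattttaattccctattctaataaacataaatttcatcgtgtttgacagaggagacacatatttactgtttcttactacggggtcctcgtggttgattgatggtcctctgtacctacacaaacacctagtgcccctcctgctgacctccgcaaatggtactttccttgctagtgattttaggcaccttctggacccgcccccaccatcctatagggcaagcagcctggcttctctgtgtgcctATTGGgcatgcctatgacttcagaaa
*Cdc20* (chr4:118437294-118437593, minus strand): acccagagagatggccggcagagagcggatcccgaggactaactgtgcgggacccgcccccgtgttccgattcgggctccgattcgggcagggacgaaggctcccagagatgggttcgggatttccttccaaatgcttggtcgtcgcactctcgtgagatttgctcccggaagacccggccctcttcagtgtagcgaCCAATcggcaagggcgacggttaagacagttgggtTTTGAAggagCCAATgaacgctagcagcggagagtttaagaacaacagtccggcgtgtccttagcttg
TTTGAA stood in 6 of the 9 windows (*Bub1b*, *Ttk*, *Plk1*, *Aurka*, *Cdc20* and *Espl1*), and in 17.9% of all 32851 windows. CCAAT stood in 8 of the 9, all but *Mad2l1*, and in 37.4% of all windows. The MYB core AACTG stood in 5 of the 9 (*Bub1*, *Bub1b*, *Mad2l1*, *Cdc20* and *Espl1*) and in 44.8% of all, and the CRE TGACGTCA in 0 of the 9 and in 1.79% of all. The *Aurkc* window differed from the other 3 shown by holding no TTTGAA, by its CCAAT box lying after the start, and by its G and C content of 46.0%, against 57.7% in *Plk1*, 58.0% in *Aurka* and 58.7% in *Cdc20*. These are matches of letters in these windows.

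Per kilobase of annotated exon, *Cdc20* was the highest of the 10 genes in every group but WT PreL, with rescaled levels per kilobase of 1622 ± 146 in WT SPG, 1770.4 ± 293 in SKO SPG (SD, n = 3 each), 2333 ± 796 in SKO PreL, 2856 ± 301 in WT LZ (n = 2) and 2541 ± 195 in SKO LZ. In WT PreL *Bub1* stood above it, at 1769 ± 132 against 994 ± 210.1, and the ranges of these neighbours did not overlap. In SKO PreL the ranges of *Cdc20* and *Bub1* (1967 ± 532) overlapped. *Aurkc* was the lowest gene in WT SPG, WT PreL, SKO PreL and SKO LZ, at 38.3 ± 1.07 in SKO LZ, and in SKO SPG *Aurkb* stood lowest, at 50.7 ± 16.2, in a range that overlapped *Aurkc*. In WT LZ the order from *Cdc20* down was *Aurka* (1999.6 ± 837), *Bub1* (1689.7 ± 425), *Aurkc* (614 ± 491) and *Plk1* (578 ± 80.6), of which *Aurka* overlapped *Bub1* and *Aurkc* overlapped *Plk1*. Exon length is that of all annotated isoforms joined, so *Mad2l1*, with 8390 bases, is understated where a short isoform is used.

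Over the 17 libraries the genes with the profile most like *Aurka* were *Cops5* (r = 0.94) and *Reep4* (r = 0.93), on log2(rescaled value + 10), among 8657 genes whose mean reached 100 reads. For *Aurkc* they were *Ntpcr* (r = 0.94) and *Faah* (r = 0.93). For *Aurkb* they were *Fbxo5* (r = 0.93) and *Ggct* (r = 0.92), of which *Fbxo5* encodes the APC/C inhibitor EMI1, and for *Plk1* *Arl6ip1* (r = 0.91) and *Ube2c* (r = 0.89), of which *Ube2c* encodes an APC/C E2 enzyme. For *Ttk* they were *Nusap1* (r = 0.92) and *2900053A13Rik* (r = 0.92), for *Bub1* *Yipf4* (r = 0.96) and *Smpd3* (r = 0.96), for *Bub1b* *Ttc26* (r = 0.92) and *Klhl15* (r = 0.92) and for *Mad2l1* *Tmem33* (r = 0.92) and *Mastl* (r = 0.89). For *Cdc20* they were *Atf7ip* (r = 0.87) and *Rnpc3* (r = 0.86), and for *Espl1* *Uhrf1* (r = 0.89) and *Ccdc61* (r = 0.88). These correlations are descriptions, since the libraries fall into 6 groups and all genes share the same libraries and size factors.

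The partners of the 10 genes were counted from 3 lists: 23 checkpoint and kinetochore genes, 15 partners of the Aurora and Polo kinases, and 21 genes of the APC/C and of separase control. Some of these stand in the table under older symbols, *Haspin* as *Gsg2*, *Ska3* as *F630043A04Rik*, *Meikin* as *4930404A10Rik*, *Sgo1* as *Sgol1* and *Sgo2a* as *Sgol2*. In SPG 4 of 59 were called lower in SKO and 0 higher, against 2.06% and 3.95% of all genes. The median log2 fold change of the 59 was -0.27 beside 0.00136 over all genes. The 4 lower ones were *Mis12* (-1.12, adjusted p = 0.00567) and *Nuf2* (-1.11, adjusted p = 0.0252) of the outer kinetochore, *Fbxo5* (-1.48, adjusted p = 0.00876), and *Plk5* (-2.78, adjusted p = 0.0103), which was named because the count is small. The call of *Nuf2* was lost when any library but SKO SPG replicate 4 was left out.

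In PreL 3 of 59 partners were called lower and 2 higher, near the 5.83% and 5.32% of all genes, with a median of -0.06. The lower ones were *Haspin* (-1.43, adjusted p = 0.0191), whose kinase places the passenger complex on chromosomes, *Incenp*, and *Plk5* (-1.30, adjusted p = 0.0127). The higher ones were *Plk2* (1.10, adjusted p = 0.0079) and *Mad2l1bp* (1.92, adjusted p = 0.0388). *Plk5* and *Mad2l1bp* were named because the counts are small. On the ERCC-calibrated scale *Haspin* and *Incenp* were not called (-0.74 and -0.54), against a shift of 0.73 in all genes. *Haspin* was also lost without WT PreL replicate 2 or SKO PreL replicate 2, and *Plk2* without SKO PreL replicate 1.

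In LZ, 9 of 58 partners were called lower, against 25.8% of all genes, and 11 higher, against 13.4%, with a median of -0.18 beside -0.13 over all genes. The checkpoint and kinetochore list had 4 lower and 4 higher of 23. Of these, *Cenpf* (2.28, adjusted p = 0.000176), a protein of the outer kinetochore, stood at 52466 ± 9460.3 in SKO and 10586 ± 1089 in WT, and *Ska3* (2.76, adjusted p = 0.000168) was also higher, while *Nuf2* (-1.04, adjusted p = 0.00208) and *Pmf1* (-1.17, adjusted p = 0.00436) were lower. The Aurora and Polo partners had 2 lower and 3 higher of 14. *Haspin* (-3.78, adjusted p = 0.000288) stood at 314 ± 49.5 in SKO and 4899 ± 3334 in WT, and *Meikin* (-3.85, adjusted p = 0.000234), a meiotic kinetochore protein that binds PLK1, at 49.2 ± 7.43 and 800.1 ± 358. *Incenp* and *Mastl* (1.05, adjusted p = 0.00232), the Greatwall kinase, were higher, the latter only on the rescaled values.

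The APC/C and separase control list had 3 lower and 4 higher of 21 in LZ. The APC/C subunits *Anapc11* (-1.61, adjusted p = 0.000517) and *Cdc23* (-1.49, adjusted p = 0.00272) were lower. *Sgo2a* (2.70, adjusted p = 0.000139) and *Sgo1* (2.05, adjusted p = 0.000119), the shugoshins that shield centromeric cohesin from separase, were higher, at 34796 ± 8855 and 4979 ± 787 in SKO against 5199 ± 834 and 1176 ± 48.3 in WT. The call of *Nuf2* was lost without WT LZ replicate 3 and those of *Pmf1* and *Mastl* without WT LZ replicate 2, whereas *Cenpf*, *Ska3*, *Haspin*, *Meikin*, *Incenp*, *Anapc11*, *Cdc23*, *Sgo2a* and *Sgo1* were called under every alternative fitted.

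**Figure D5:**
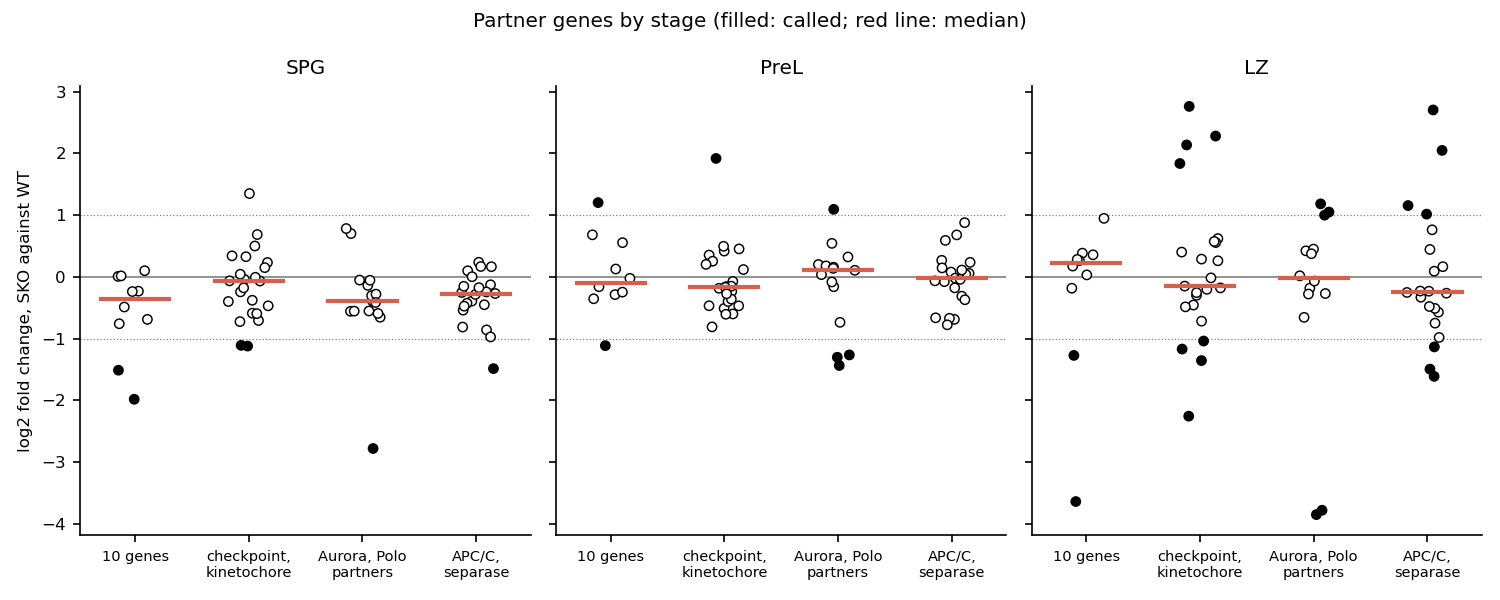
Log2 fold change of SKO against WT in SPG, PreL and LZ for the 10 genes and for the tested genes of the 3 partner lists, 1 point per gene, filled where called, with the median of each list as a red line. The medians of the partner lists lie within 0.5 of 0 in each stage, and the called genes spread to both sides of 0 in LZ.

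Between stages, the partner lists gave no call from SPG to PreL in WT, of 59 tested, and 4 higher and 0 lower in SKO, against 1.63% and 0.955% of all genes. The 4 in SKO were *Fbxo5* (1.80, adjusted p = 0.00649), *Ube2c* (1.39, adjusted p = 0.011), *Plk2* (1.40, adjusted p = 0.0404) and *Nuf2* (1.17, adjusted p = 0.0499), of which *Plk2* was lost when any library was left out, *Nuf2* when any but SKO SPG replicate 4 was, and *Ube2c* without SKO SPG replicate 3. From PreL to LZ in WT, 8 were higher and 8 lower, against 18.8% and 7.8% of all genes. *Haspin* (2.92, adjusted p = 0.00284), *Meikin* (2.35, adjusted p = 0.0124), *Anapc11* (1.45, adjusted p = 0.00278), *Ube2s* (1.32, adjusted p = 0.00429), *Mad1l1* (1.43, adjusted p = 0.0248) and *Bub3* (1.30, adjusted p = 0.00338) were higher. *Ska3* (-1.93, adjusted p = 0.00251), *Spc24* (-1.64, adjusted p = 0.00251), *Mastl* (-1.25, adjusted p = 0.00647), *Plk5* (-1.39, adjusted p = 0.0248) and *Fbxo5* (-1.19, adjusted p = 0.00798) were lower on the rescaled values, and none of these 5 was called on the ERCC-calibrated scale. *Meikin* and *Ube2s* were not called without WT LZ replicate 3, *Mad1l1* without any one of the 5 libraries, and *Plk5* without WT PreL replicate 1 or 2 or WT LZ replicate 3.

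From PreL to LZ in SKO, 8 partners were called higher and 2 lower of 59, against 10.6% and 6.93% of all genes. *Fbxo43* (2.35, adjusted p = 0.000389), which encodes the meiotic APC/C inhibitor EMI2, *Sgo2a* (1.91, adjusted p = 0.000291), *Nsl1* (1.71, adjusted p = 0.000207), *Cenpf* (1.68, adjusted p = 0.000172), *Incenp* (1.35, adjusted p = 7.03e-05) and *Nek2* (1.14, adjusted p = 0.00241) were higher. *Cdc23* (-1.72, adjusted p = 0.000206) and *Pmf1* (-1.70, adjusted p = 0.000348) were lower on the rescaled values and were not called on the ERCC-calibrated scale, and *Nek2* was lost without SKO PreL replicate 1. *Incenp* thus was called higher in this step in the same genotype as *Aurkb*, and *Haspin* and *Meikin* were called higher in the WT step to LZ, as *Aurka* and *Aurkc* were. The genotype effect on the partners changed from SPG to PreL for 1 of 59, *Ube2c* (1.52, adjusted p = 0.0432), named because the count is small, and from PreL to LZ for 14 in the lower and 14 in the higher direction of 59, against 23.1% and 15.1% of all genes.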

How the data were processed

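Reads of 17 Smart-seq2 libraries, made from polyadenylated RNA of sorted germ cells, were mapped by the authors to mm10 (the labels also name mm9). Per the labels, TopHat2 2.1.1, Cufflinks 2.2.1, HTSeq 0.11.2 and DESeq2 were used. The deposited signal values are counts of uniquely mapped reads per gene that the authors multiplied by 1 factor per library, derived from spiked ERCC RNA and the number of input cells. Dividing a library's column by its smallest value gave whole numbers (tolerance 0.05) for 100% of the values, and these were taken as reads. The factors ran from 1 to 10.4 and decide every value on the ERCC-calibrated scale. Reads amplified by PCR are not independent molecules.

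In each comparison, values were scaled by size factors (median of ratios) over its own libraries, genes averaging 10 reads or more were kept, and log2(value + 10) was tested with limma 3.58.1 (R 4.3.3, mean-variance trend, Benjamini-Hochberg adjustment over all genes). Genotypes were compared within each stage and neighbouring stages within each genotype, using the libraries of the 2 groups, and changes of the genotype effect by an interaction over all 17 libraries, called at an adjusted p-value under 0.05 without a fold threshold. The script was tested on simulated data. Alternatives were the unscaled values, TMM, other pseudocounts (1 and 50), other filters (none, or 50 reads on average), edgeR 4.0.16 and DESeq2 1.42.0 on the recovered reads, fitting all 17 libraries together, the replicate block, calls by p alone, and leaving out each library. Exons and positions come from GENCODE vM21 (GRCm38).

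The 10 genes, the partner lists and the marker lists were chosen with earlier results of these data known. Named partners are, for each list, comparison and direction, the 2 called genes with the largest fold change among those averaging 100 reads or more whose groups did not overlap. Other genes named for a small count are marked in the text. For each of the 10 genes, the 2 genes with the highest Pearson r over the 17 libraries are given. Isoforms, splicing and protein were not analysed here.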

Additional observations from a re-analysis of the deposited data

Results flagged for a closer look

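For 6 of the 10 genes the genotype effect differed between stages by the interaction term of limma. The interaction of PreL and LZ gave 5 of these, and it called 23.1% of all genes lower and 15.1% higher, with a median change of -0.31 over all genes. That of SPG and PreL called 0.111% lower and 0.251% higher. The change from PreL to LZ was 2.08 for *Aurkb* (limma adjusted p = 9.62e-05), from -1.11 in PreL to 0.95 in LZ. It was -1.93 for *Aurka* (limma adjusted p = 0.00675), from 0.68 in PreL to -1.27 in LZ. For the meiotic Aurora kinase it was -3.15 for *Aurkc* (limma adjusted p = 0.00987), from -0.35 in PreL to -3.64 in LZ. The change was -1.36 for *Cdc20* (limma adjusted p = 0.0012), from 1.20 in PreL to -0.18 in LZ. It was 0.63 for *Ttk* (limma adjusted p = 0.045), from -0.25 in PreL to 0.36 in LZ. From SPG to PreL the change was 2.07 for *Plk1* (limma adjusted p = 0.0149), from -1.51 in SPG to 0.56 in PreL. Without WT SPG replicate 3 this change of *Plk1* had a limma adjusted p of 0.0558. Without WT LZ replicate 3 the changes from PreL to LZ were -1.51 for *Aurka* and -2.25 for *Aurkc*. The call of *Ttk* was lost without any 1 of the SKO LZ libraries. No group had 4 or more libraries, so single libraries could not be checked as outliers. The 2 WT LZ libraries were the least alike of any pair within a group. Their reads differed with a chi-square per degree of freedom of 53.1, against 4.95 to 29.7 in the other groups, a measure that also grows with read depth. Sertoli cell markers summed to 7651 and 29653 in these 2 libraries.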

How the results depend on the processing

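Of 1495 log2 fold changes refitted for the 10 genes, 1424 kept their side of the thresholds, 28 lost and 35 gained a call, and 8 turned sign with a call. Another 68 turned sign without a call in either fit. Of 314 counts of called genes, 271 lay within 1.5 times the reported count.

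The scaling mattered most. Rescaling by the median of ratios by design largely removes a shift common to all genes, which is kept on the ERCC-calibrated scale. On it the 8 turned values were, in the WT step from PreL to LZ, 1.60 for *Bub1*, 1.14 for *Mad2l1*, 1.70 for *Ttk*, 1.11 for *Aurkb* and 1.71 for *Espl1*, in the change of the genotype effect from SPG to PreL 0.97 for *Ttk*, and in that from PreL to LZ -0.80 for *Bub1* and -0.24 for *Ttk*. Of the 10 genes it called 0 lower and 3 higher in SKO PreL and 0 lower in the WT step to PreL. It called 10 higher in the WT step to LZ, and 9 and 7 higher in the SKO steps to PreL and LZ. For the interaction of SPG and PreL it called 9 higher, and for that of PreL and LZ 5 lower and 1 higher. Over all genes it called 585 of 13132 lower and 3459 higher in PreL, and 95 of 12657 lower in the WT step to PreL. The WT step to LZ had 10992 of 13759 higher, and the SKO steps 5657 of 12882 and 4409 of 12477. The first interaction had 5938 of 13530 higher (median log2 change 0.94). The second had 6575 lower and 749 higher (median -1.12). Lower calls as a share of all genes called were, rescaled against ERCC-calibrated, 34.3% against 59.2% in SKO against WT in SPG, 52.3% against 14.5% in SKO against WT in PreL, 32.2% against 22.2% in the WT step from SPG to PreL, 29.3% against 0.136% in the WT step from PreL to LZ, 36.9% against 0.528% in the SKO step from SPG to PreL, 39.6% against 3.33% in the SKO step from PreL to LZ, 30.6% against 2.42% in the first interaction and 60.5% against 89.8% in the second. With TMM scaling the first interaction gave 16.1%.

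For other alternatives the cause was not tested. Without a fold threshold, 4 genes were lower in SPG, against 622 of 12846 genes tested, and 1 was higher in LZ, against 2716 of 13724. The WT steps then had 2 lower into PreL, against 382 of 12657, and 2 lower into LZ, against 1959 of 13759. The SKO step to LZ then had 5 higher, against 2224 of 12477. A pseudocount of 50 or no filter gave 0 lower in the WT step to PreL, and no filter 1 higher for the interaction of PreL and LZ, where *Ttk* was lost (adjusted p = 0.057). edgeR on the reads called 1 gene higher in SKO LZ, against 1832 of 13724 genes tested. DESeq2 called 4 higher in the SKO step to PreL, against 431 of 12850 genes tested. For the first interaction it called 2 higher, against 144 of 13486. For the second it called 1 higher, against 2069 of 13486, and *Ttk* was lost (adjusted p = 0.0514). Fitting all libraries together called 4 higher in the SKO step to PreL, against 414 of 13530. With libraries left out in turn, counts ran from 0 to 1 lower and 0 to 1 higher in PreL, from 1 to 2 lower and 0 to 1 higher in LZ, from 0 to 1 lower in the WT step to PreL, from 3 to 4 higher in the WT step to LZ, from 2 to 3 higher in the SKO step to LZ, from 0 to 1 higher for the first interaction, and from 1 to 3 lower and 1 to 2 higher for the second. Without WT LZ replicate 3, *Aurkb* was called higher in SKO LZ (1.02).

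The replicate numbers are not stated to pair the libraries. Deviations of same-numbered libraries correlated at -0.19 to 0.13 over 14 pairs, and for LZ and PreL of SKO 2 of 3 correlated best with their own number. With the replicate block, *Cdc20* in PreL was 0.78, under the fold threshold, so 0 genes were called higher there. *Espl1* was then called lower in SPG (-1.05, adjusted p = 0.00241). The block gave 0 lower in the WT step to PreL (*Plk1*, -0.97), 1 higher in the SKO step to PreL, where *Aurkb* was lost (1.65, adjusted p = 0.0907), and 1 higher for the second interaction, where *Ttk* was lost (adjusted p = 0.0534). Of the named partners, *Fbxo5*, *Ube2c* and *Plk2* lost their calls in the SKO step to PreL and *Mastl* in LZ. No paired analysis was possible for the WT step from PreL to LZ because these groups share 1 number. The 11 to 16 reads of *Aurkc* in SKO LZ limit how exactly its fold is known.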

Other observations

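Other gene groups, counted on the rescaled values for SKO against WT, moved as follows, as values only. Of all genes tested, 2.06% were called lower and 3.95% higher in SPG, 5.83% and 5.32% in PreL, and 25.8% and 13.4% in LZ. Undifferentiated spermatogonial markers gave 0 lower and 0 higher of 9 in SPG, 0 lower and 1 higher of 9 in PreL and 1 lower and 1 higher of 9 in LZ, and differentiating spermatogonial markers 0 lower and 1 higher of 7 in SPG, 1 lower and 1 higher of 7 in PreL and 1 lower and 2 higher of 7 in LZ. Early meiotic markers, which include synaptonemal complex genes, gave 0 lower and 1 higher of 13 in SPG, 0 lower and 1 higher of 13 in PreL and 3 lower and 0 higher of 13 in LZ. Mitosis markers in PreL gave 0 lower and 2 higher of 18. S phase markers gave 0 lower and 0 higher of 15 in SPG, 0 lower and 0 higher of 15 in PreL and 2 lower and 2 higher of 15 in LZ. Sertoli cell markers gave 0 lower and 1 higher of 7 in SPG, 0 lower and 4 higher of 8 in PreL and 0 lower and 0 higher of 8 in LZ, peritubular myoid markers 0 lower and 3 higher of 5 in SPG, 1 lower and 0 higher of 4 in PreL and 1 lower and 0 higher of 4 in LZ, and endothelial markers 0 lower and 0 higher of 3 in SPG, 0 lower and 0 higher of 2 in PreL and 0 lower and 0 higher of 2 in LZ.

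Among the 10 genes themselves, the pair most alike over the 17 libraries was *Ttk* and *Aurkb* (r = 0.87) and the pair least alike *Mad2l1* and *Aurka* (r = -0.53). These correlations are descriptions over libraries of 6 groups.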
